A study of Mus musculus with 2 samples.

Results

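Genes of the platelet cytoskeleton, 9 in all, were followed through mouse bone marrow progenitors: the myosin genes Myh9, Myh10 and Myl9, the actin crosslinker and linker genes Flna, Tln1 and Actn1, the tropomyosin gene Tpm4, and the tubulin genes Tubb1 and Tuba8. They were chosen by name, and all 9 were found among the 31053 genes of the deposited count matrix. The data are single-cell RNA counts of marrow from crushed hind limbs of C57BL/6 mice, sorted for c-Kit without Sca1 or lineage markers (LKS-), a gate that holds progenitors of myeloid, erythroid and megakaryocyte cells. One library of 7889 cells is labelled Runx1 KO, and the sources used here give neither its number of mice nor the deleted exons or the Cre driver. The other, of 6906 cells, is Control, pooled from 1 Runx1f/f mouse and 1 Runx1f/- mouse, so that 1 of its 2 mice carried a germline mutation of 1 Runx1 allele. Ages are not stated, and 1 label field names embryos, while the tissue and extraction fields name hind limb marrow, which is followed here.

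Megakaryocytes build platelets by extending microtubule-filled processes that are pinched off into the blood. The nonmuscle myosin heavy chains Myh9 (myosin IIA) and Myh10 (myosin IIB), driven by light chains such as Myl9, pull on actin during cytokinesis, polyploidization and platelet release, and megakaryocytes silence Myh10 as they become polyploid. Filamin A (Flna) and talin 1 (Tln1) tie the platelet adhesion receptors to actin, alpha-actinin 1 (Actn1) bundles actin filaments, and Tpm4 is the main tropomyosin of platelets. Tubb1 encodes the beta-tubulin of the microtubule ring of platelets, and Tuba8 an alpha-tubulin. Runx1 is a transcription factor of the megakaryocyte lineage, reported to repress Myh10 and to activate Myl9 there. Inherited variants of human MYH9, FLNA, ACTN1, TPM4, TUBB1 and RUNX1 cause low or abnormal platelets.

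Levels are counts per 1000000 UMIs (CPM), where a UMI, or unique molecular identifier, marks 1 captured transcript, summed within a library or within 1 deposited cell class. UMIs count 3′ ends of molecules, so no scaling by gene length was made, and levels are compared between classes and libraries and not between genes. UMIs totalled 145590840 in the library labelled Runx1 KO (median per cell 16092) and 162278272 in Control (median 21593.5). A mitochondrial share of 10% or more was seen in 4.12% and 2.74% of cells, and 13 barcode sequences occurred in both libraries. With 1 library per genotype there is no spread between animals to set a difference against, so no test was possible; all intervals are exact 95% intervals for counting error only. Runx1 itself had 361 CPM in the library labelled Runx1 KO and 143 CPM in Control, a ratio of 2.53 (2.49 to 2.57), and it was higher in each of the 6 compared classes. The label is thus not borne out by the transcript, although 3′ UMIs do not check a deletion in another stretch of the gene, and the library is called KO-labelled below.

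The 6 classes with at least 200 cells in each library were compared. They are named by a gene in the deposited annotation: Pf4 (1782 KO-labelled and 222 Control cells), Car1 (3003 and 2210), Hba-a2 (318 and 294), CD34 (679 and 1076), Ly86 (553 and 1326) and Gstm1/CD63 (657 and 621). By the summed levels of marker lists, neutrophil progenitor genes were highest in Gstm1/CD63 (23499 CPM in KO-labelled and 25393 CPM in Control cells), monocyte progenitor genes in Ly86 (1573 and 1326, beside 14981 and 11449 of the neutrophil progenitor genes), early progenitor genes in CD34 (536 and 566) and erythroid genes in Hba-a2 (2855 and 1086) before Car1 (287 and 361). The Pf4 class carried the megakaryocyte markers, a list of 12 genes with Pf4, Itga2b, Gp9, Ppbp, Clec1b and Vwf among them, which summed to 6934 CPM in KO-labelled cells and 6433 CPM in Control cells. In the other 5 classes the sum ranged from 133 to 751 CPM in KO-labelled cells and from 16.8 to 285 CPM in Control cells. Within the Pf4 class the markers did not share a direction: Pf4 had 3469 and 5116 CPM, while Clec1b, a platelet receptor gene, had 438 and 36.6, Ppbp, a platelet chemokine gene, 144 and 16.0, and Itga2b, the platelet integrin alpha gene, 1347 and 553. Of the 10 measured markers 7 were at least 1.5-fold higher in KO-labelled cells and 1, Vwf, lower. Of all 4967 measured genes of the class 7.15% were higher and 3.38% lower. The class had a median of 13028.5 UMIs per KO-labelled cell and 18341.5 per Control cell.

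The start regions of 4 members are shown because they bear on the genes the results turn on: Myl9 and Myh10 are reported Runx1 targets, Tpm4 was the 1 measured member counted as higher in the Pf4 class, and Tuba8 went both ways. Sequences are RefSeq's on GRCm38.p6, from 250 bases before to 50 after the start, 5′ to 3′ on the gene's strand. Capitals mark matches on either strand to the Runx motifs TGTGGT and TGCGGT, the GATA motif AGATAA, the NF-E2 and AP-1 core TGAGTCA and the CArG box bound by serum response factor.
Myl9 promoter (chr2:156775214-156775513, plus strand): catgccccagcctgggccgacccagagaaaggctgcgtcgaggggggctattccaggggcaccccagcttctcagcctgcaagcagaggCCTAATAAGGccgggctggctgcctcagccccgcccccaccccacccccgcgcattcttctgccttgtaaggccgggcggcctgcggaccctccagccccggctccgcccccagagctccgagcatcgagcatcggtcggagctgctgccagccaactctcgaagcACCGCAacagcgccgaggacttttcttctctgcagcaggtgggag
Myh10 promoter (chr11:68691665-68691964, plus strand): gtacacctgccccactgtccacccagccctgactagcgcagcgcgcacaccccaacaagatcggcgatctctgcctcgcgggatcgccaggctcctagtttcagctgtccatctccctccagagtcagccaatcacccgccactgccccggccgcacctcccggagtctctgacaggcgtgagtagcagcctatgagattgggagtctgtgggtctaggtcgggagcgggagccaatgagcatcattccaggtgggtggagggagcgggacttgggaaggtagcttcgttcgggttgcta
Tuba8 promoter (chr6:121210484-121210783, plus strand): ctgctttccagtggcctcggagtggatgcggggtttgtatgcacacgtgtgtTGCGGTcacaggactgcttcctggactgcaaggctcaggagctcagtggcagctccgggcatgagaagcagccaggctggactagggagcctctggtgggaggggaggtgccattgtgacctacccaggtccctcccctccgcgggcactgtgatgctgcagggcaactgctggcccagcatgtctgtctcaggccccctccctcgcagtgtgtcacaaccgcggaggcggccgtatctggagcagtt
Tpm4 promoter (chr8:72135038-72135337, plus strand): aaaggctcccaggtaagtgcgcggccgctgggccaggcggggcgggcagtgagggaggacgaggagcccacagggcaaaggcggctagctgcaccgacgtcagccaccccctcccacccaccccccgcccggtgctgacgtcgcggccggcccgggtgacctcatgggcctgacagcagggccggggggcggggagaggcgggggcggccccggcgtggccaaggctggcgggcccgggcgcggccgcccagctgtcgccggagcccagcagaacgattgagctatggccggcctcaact
A TGCGGT match lay in 3 of the 9 members, Myl9, Tuba8 and Tln1, and TGTGGT in none, while 22.4% of the 32851 promoters of the table held 1 of the pair. The match began 6 bases after the Myl9 start on the opposite strand, at -198 in Tuba8 on the gene's strand and at -97 in Tln1 on the opposite strand. The CArG box was in Myl9 alone of the 9, at -161, and in 1.63% of all promoters; being nearly its own mirror image, it matched on both strands. No AGATAA or TGAGTCA lay in the 9 windows, against 11.2% and 5.2% of promoters. A match describes letters and not a site in use, and the absence of a match covers these 300 bases only. No overlap between motifs occurred.

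Among the 6 compared classes the members differed in the class where they were highest. Myh9, Tln1 and Tuba8 were highest in the Pf4 class among the 6 classes in both libraries. Tpm4 was so in the KO-labelled library alone, since in Control it was highest in the Ly86 class. In Ltf (221 and 50 cells), a deposited class outside these 6, Myh9 had 222 CPM in KO-labelled and 294 CPM in Control cells. In Cd74 (7 and 56 cells), also outside, Myh9 had 228 and 230 CPM and Tpm4 308 and 204 CPM. Myh10 was highest in the Hba-a2 class. Flna was lowest in Hba-a2. Over the other 5 classes it ranged from 41.4 to 63.6 CPM in KO-labelled and from 64.0 to 80.3 CPM in Control cells. Actn1 was highest in the Pf4 class of Control and in Gstm1/CD63 of the KO-labelled library. Tubb1 and Myl9 were close to absent, Tubb1 with most of its few UMIs in the Pf4 class. A member was called measured from 30 CPM in either library and 100 UMIs in sum; 4 were measured in the whole library, 5 in the Pf4 class, 4 each in Car1, Ly86 and Hba-a2, and 3 each in CD34 and Gstm1/CD63. A member counted as different from a 1.5-fold difference after a pseudocount of 10 CPM on both sides. In the Pf4 class 1 member, Tpm4, was higher and 1, Tuba8, was lower in KO-labelled cells, where 7.15% of all 4967 measured genes were higher and 3.38% lower. In the Car1 class, named by a carbonic anhydrase gene of erythroid progenitors, none was higher and 1, Flna, was lower, against 3.67% and 1.95% of 4714 genes. In the whole library (background 4.28% higher, 1.65% lower) and in Ly86 (2.19%, 0.817%), CD34 (2.85%, 1.37%), Gstm1/CD63 (1.38%, 0.7%) and Hba-a2 (1.8%, 0.751%) no measured member passed in either direction. These counts are too small to read against the background. The median log2 ratio of the 3 to 5 measured members ranged from -0.12 in Hba-a2 and -0.07 in Ly86 to 0.20 in the Pf4 class and 0.28 in Car1, and that of all measured genes from -0.02 to 0.02 over the 6 classes.

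**Figure D1:**
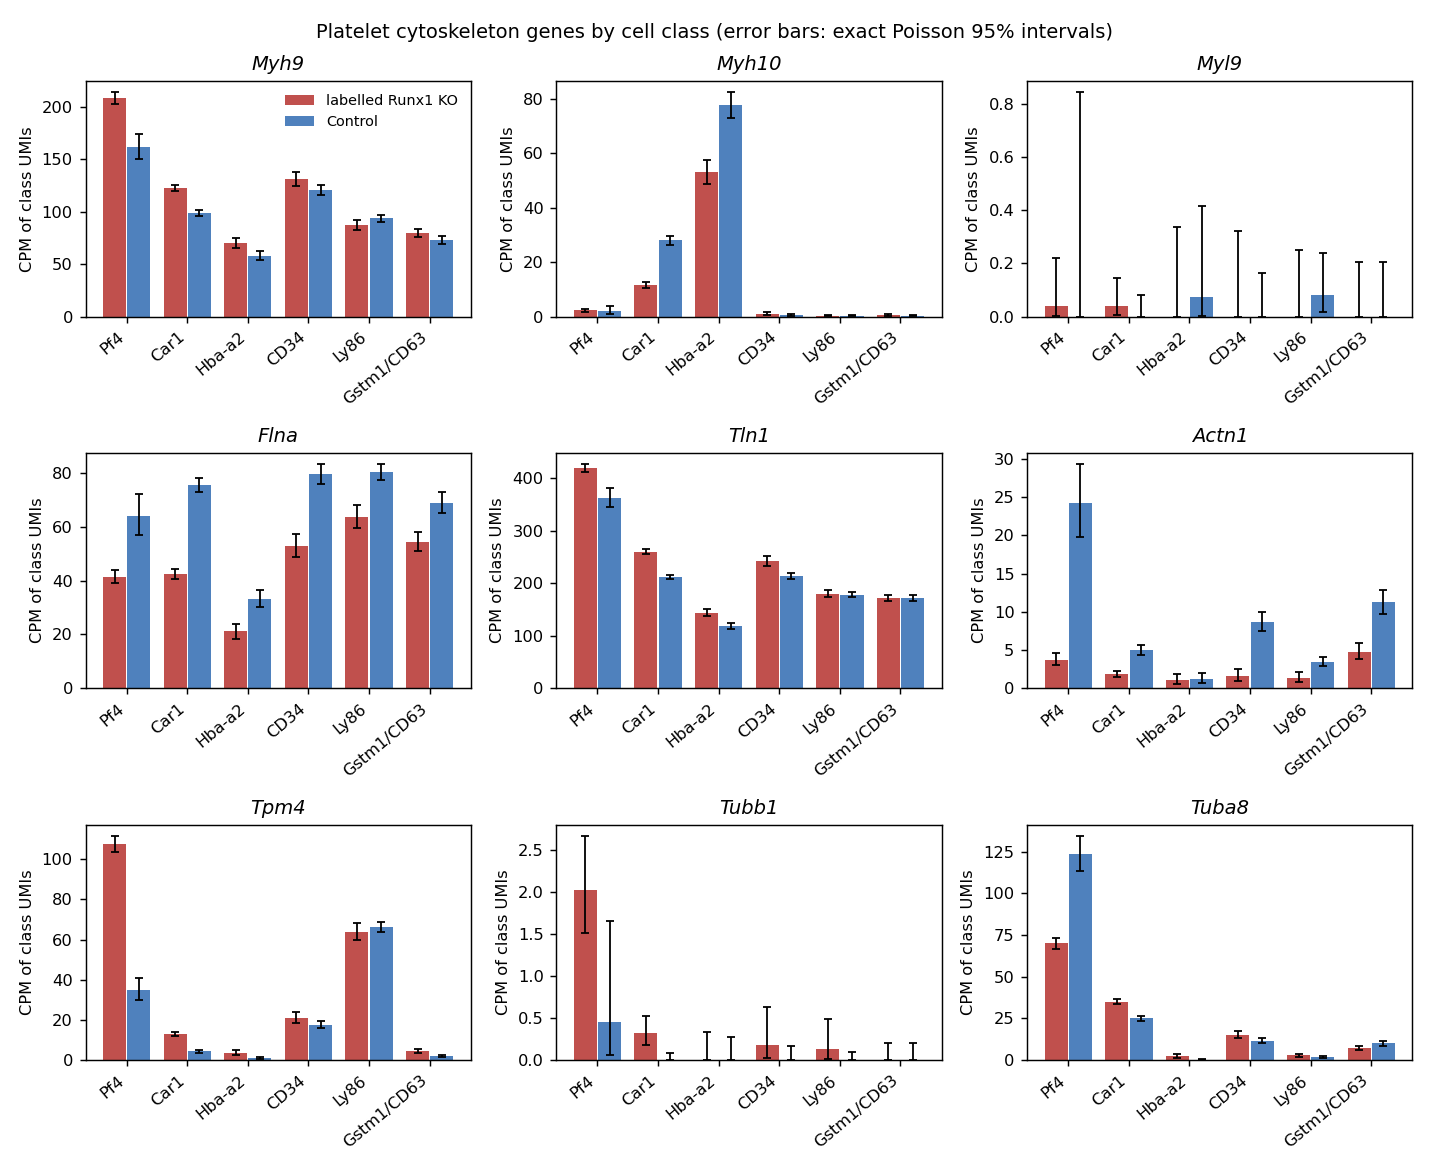
CPM of each of the 9 genes in the 6 compared cell classes, labelled Runx1 KO left of Control, with exact Poisson 95% intervals; each panel has its own axis. Myh9, Tln1 and Tuba8 peak in the Pf4 class, Myh10 peaks in the Hba-a2 class, and all Myl9 points lie under 0.1 CPM.

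Among the tubulins, Tubb1 was barely detected and Tuba8 was abundant in the Pf4 class but lower in KO-labelled than in Control cells. Tubb1 (ENSMUSG00000016255, chr2:174450695-174457882, plus strand) had 51 UMIs, or 2.03 CPM (1.51 to 2.67), in KO-labelled Pf4-class cells and 2 UMIs, or 0.457 CPM (0.0554 to 1.65), in Control cells. The ratio of 4.44 had an interval from 1.17 to 37.6. Few cells carried it: after thinning each cell to 5000 UMIs, 1.35% (0.861 to 2.03) of KO-labelled and 0.488% (0.0123 to 2.69) of Control cells of the class had a Tubb1 UMI, intervals that overlap; before thinning the shares were 2.47% and 0.901%. Over all cells it had 71 UMIs in the KO-labelled library and 2 in Control, and it was not detected in the Gstm1/CD63 class of either library, where a count of 0 allows up to 0.459% and 0.505% of thinned cells to have a UMI, which does not limit the cells that express it. The Pf4 class thus held the markers of the lineage with little of its late tubulin transcript.

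Tuba8 (ENSMUSG00000030137, chr6:121210696-121226854, plus strand) had 70.1 CPM (66.8 to 73.4) in KO-labelled and 124 CPM (113 to 134) in Control cells of the Pf4 class, 1.76-fold less (ratio 0.567, 0.515 to 0.626). Thinned cells with a Tuba8 UMI made up 25.9% (23.8 to 28.0) of KO-labelled and 42.0% (35.1 to 49.0) of Control cells, against 53.2% and 72.5% before thinning. In the Gstm1/CD63 class, deeper at medians of 26825 and 28810 UMIs per cell, the thinned shares were 3.22% and 4.55%. That class was not free of Tuba8, and the shares were lower in Ly86, at 1.11% and 0.486%. Elsewhere the direction turned. In the Car1 class Tuba8 had 35.1 CPM in KO-labelled and 25.1 CPM in Control cells (ratio 1.40, 1.30 to 1.51), and in the CD34 class 15.2 and 11.7 CPM (1.30, 1.07 to 1.58). In Gstm1/CD63 it was lower again, at 7.13 and 10.0 CPM (0.710, 0.562 to 0.895). Its order over classes was Pf4, Car1, CD34, Gstm1/CD63, Ly86 and Hba-a2 in both libraries; the counting intervals met only between Ly86 and Hba-a2 in KO-labelled cells and between CD34 and Gstm1/CD63 in Control cells. An antisense gene overlaps Tuba8. The sources used here do not say whether counting used strand, so whether reads of the pair were kept apart is not known here.

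The myosin heavy chain Myh9 (ENSMUSG00000022443, chr15:77760587-77842175, minus strand) differed little between libraries. In the Pf4 class it had 208 CPM (203 to 214) in KO-labelled and 162 CPM (150 to 175) in Control cells, a ratio of 1.29 (1.19 to 1.39). In the Car1 class it had 123 and 99.2 CPM, in CD34 131 and 121, in Gstm1/CD63 79.6 and 73.3, and in Hba-a2 70.0 and 58.1. In the Ly86 class it was lower instead, at 86.9 CPM in KO-labelled and 93.7 CPM in Control cells (0.928, 0.869 to 0.990). All of these differences lay under 1.5-fold. Gm22107, a small nuclear RNA gene, overlaps Myh9 on the same strand. Thinned cells with a Myh9 UMI made up 60.7% (58.3 to 63.0) of KO-labelled and 51.7% (44.6 to 58.7) of Control cells in the Pf4 class, whereas before thinning the shares were 87.7% and 89.2%.

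Myh10 (ENSMUSG00000020900, chr11:68691559-68816632, plus strand), the heavy chain that Runx1 is reported to silence in megakaryocytes, was low in the Pf4 class of both libraries, far under its levels in Hba-a2 and Car1. It had 57 UMIs, or 2.27 CPM (1.72 to 2.94), in KO-labelled and 9 UMIs, or 2.06 CPM (0.941 to 3.91), in Control cells, and the ratio of 1.10 had an interval from 0.542 to 2.53. At this depth no difference within that range was detectable. Its transcripts came from the classes with most erythroid markers: Car1 and Hba-a2 together held nearly all of them, at 46.1% and 46.4% of Myh10 UMIs in the KO-labelled library and 53.7% and 44.4% in Control. In the Hba-a2 class, named by an alpha-globin gene, it had 53.1 CPM (48.8 to 57.6) in KO-labelled and 77.6 CPM (72.9 to 82.4) in Control cells, 1.46-fold less (0.684, 0.617 to 0.758). Thinned cells with a UMI made up 17.3% and 29.0% of that class, against 56.9% and 77.9% before thinning. Of the 8 erythroid markers, Hba-a1 and Klf1 among them, 4 were at least 1.5-fold higher and none lower in the same KO-labelled cells. Of all 4397 measured genes of the class 1.8% were higher and 0.751% lower. The 8 markers summed to 2855 CPM in KO-labelled and 1086 CPM in Control cells. Their part in the Myh10 difference was not tested.

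Myl9 (ENSMUSG00000067818, chr2:156775420-156781658, plus strand), the regulatory light chain whose start region carries both a TGCGGT match and the CArG box, had 3 UMIs in the KO-labelled library and 5 in Control. The Pf4 class held 1 of them in KO-labelled cells and 0 in Control cells, where a count of 0 allows up to 0.686 CPM. At this depth Myl9 could show no difference between the libraries. Smooth muscle cells are a known source of Myl9, and their markers were as scarce: in the Pf4 class Acta2 had 1 and 0 UMIs, Tagln 2 and 0 and Cnn1 0 and 1. The light chain genes of the same cells were others. Myl6 had 1246 CPM in KO-labelled and 916 CPM in Control cells of the Pf4 class (1.36, 1.32 to 1.41), Myl12a had 251 and 231, and Myl12b 210 and 254.

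Of the actin linkers, Flna and Actn1 were lower in the KO-labelled library and Tln1 was slightly higher. Flna (ENSMUSG00000031328, chrX:74223461-74249820, minus strand) had 41.4 CPM (38.9 to 44.0) in KO-labelled and 64.0 CPM (56.8 to 72.0) in Control cells of the Pf4 class, 1.55-fold less (0.646, 0.566 to 0.740). It was lower in all 6 classes, from a ratio of 0.564 (0.533 to 0.595) in Car1, where it had 42.5 and 75.4 CPM, to 0.793 (0.736 to 0.853) in Ly86, where it had 63.6 and 80.3 CPM. The Car1 ratio alone passed 1.5-fold after the pseudocount; Pf4, with a log2 ratio of -0.53, and CD34, with -0.51, fell short of the threshold of 0.585 in size. The thinned share of cells with a Flna UMI was also lower, at 18.9% and 32.6% in Car1 (45.6% and 70.9% unthinned) and 17.6% and 28.8% in the Pf4 class (36.7% and 60.8% unthinned).

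Actn1 (ENSMUSG00000015143, chr12:80167547-80260371, minus strand) stayed under the 30 CPM minimum in each compared class, and so was not counted, yet in the Pf4 class its ratio was the furthest from 1 of the 8 members with UMIs in both libraries. It had 94 UMIs, or 3.74 CPM (3.02 to 4.58), in KO-labelled and 106 UMIs, or 24.2 CPM (19.9 to 29.3), in Control cells, 6.48-fold less (0.154, 0.116 to 0.206). Thinned cells with an Actn1 UMI made up 1.77% (1.20 to 2.51) and 8.29% (4.91 to 12.9), against 4.83% and 33.8% before thinning. In the CD34 class of early progenitors Actn1 had 1.57 and 8.71 CPM (0.180, 0.105 to 0.293), in Gstm1/CD63 4.79 and 11.3 CPM (0.425, 0.327 to 0.550), in Car1 1.89 and 5.01 CPM, and in Ly86 1.36 and 3.44 CPM. Only in Hba-a2, at 1.10 and 1.20 CPM, did the interval of the ratio (0.398 to 2.08) include no difference. The Ltf class, which held the mature neutrophil markers and lay outside the comparison with 221 KO-labelled and 50 Control cells, had 136 and 190 CPM of Actn1. It gave 340 of the 751 Actn1 UMIs of the KO-labelled library and 131 of the 1194 of Control. Mature neutrophil markers summed to 106 CPM in KO-labelled and 25.4 CPM in Control cells of the Pf4 class, the opposite direction to Actn1; their part in the result was not tested. Antisense genes overlap Actn1 as well, and Gm47765, a processed transcript, overlaps it on the same strand.

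Tln1 (ENSMUSG00000028465, chr4:43531519-43562691, minus strand) had 419 CPM (411 to 427) in KO-labelled and 362 CPM (344 to 380) in Control cells of the Pf4 class, a ratio of 1.16 (1.10 to 1.22). It had 260 and 212 CPM in Car1 and 242 and 214 CPM in CD34. In Gstm1/CD63 it had 172 CPM in both libraries, and in Ly86 180 and 178. Creb3 overlaps it on the other strand.

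Tpm4 (ENSMUSG00000031799, chr8:72134975-72153142, plus strand) was the 1 member of the 5 measured in the Pf4 class that was at least 1.5-fold higher. It had 107 CPM (103 to 112) in KO-labelled and 35.0 CPM (29.7 to 41.0) in Control cells, 3.07 times as much (2.61 to 3.64). Thinned cells with a Tpm4 UMI made up 35.4% (33.1 to 37.7) and 14.6% (10.1 to 20.2), against 56.2% and 35.6% before thinning and 1.68% and 1.18% of thinned cells in Gstm1/CD63. The highest cell held 42 UMIs in the KO-labelled library and 7 in Control. It was also higher in Car1, at 13.1 and 4.34 CPM (3.02, 2.57 to 3.57). The same held in Gstm1/CD63, at 4.34 and 1.94 CPM (2.24, 1.48 to 3.44). In Hba-a2 it had 3.67 and 0.822 CPM (4.47, 2.25 to 9.66), from 40 and 11 UMIs. The highest KO-labelled cell of Hba-a2 held 12 of the 40. Outside the comparison Tpm4 had 59.5 and 27.5 CPM in Ltf (2.16, 1.33 to 3.69). Gstm1/Ly86, also outside, had 23.5 and 24.0 CPM (0.977, 0.739 to 1.28). In the Ly86 class it had 63.9 and 66.1 CPM (0.967, 0.896 to 1.04), and in CD34 its ratio was 1.19 (1.01 to 1.41), from 240 KO-labelled and 395 Control UMIs. The summed megakaryocyte markers were higher in KO-labelled cells in each of these compared classes. They summed to 751 and 285 CPM in Car1, 210 and 44.7 in Gstm1/CD63 and 155 and 16.8 in Hba-a2. In Ly86 they had 133 and 28.2 CPM and in CD34 602 and 140. Their part in the Tpm4 differences was not tested. In the KO-labelled library 54.2% of Tpm4 UMIs came from the Pf4 class and 18.8% from Ly86; in Control 3.88% came from the Pf4 class and 61.9% from Ly86. Genes on the other strand overlap Tpm4 too.

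**Figure D2:**
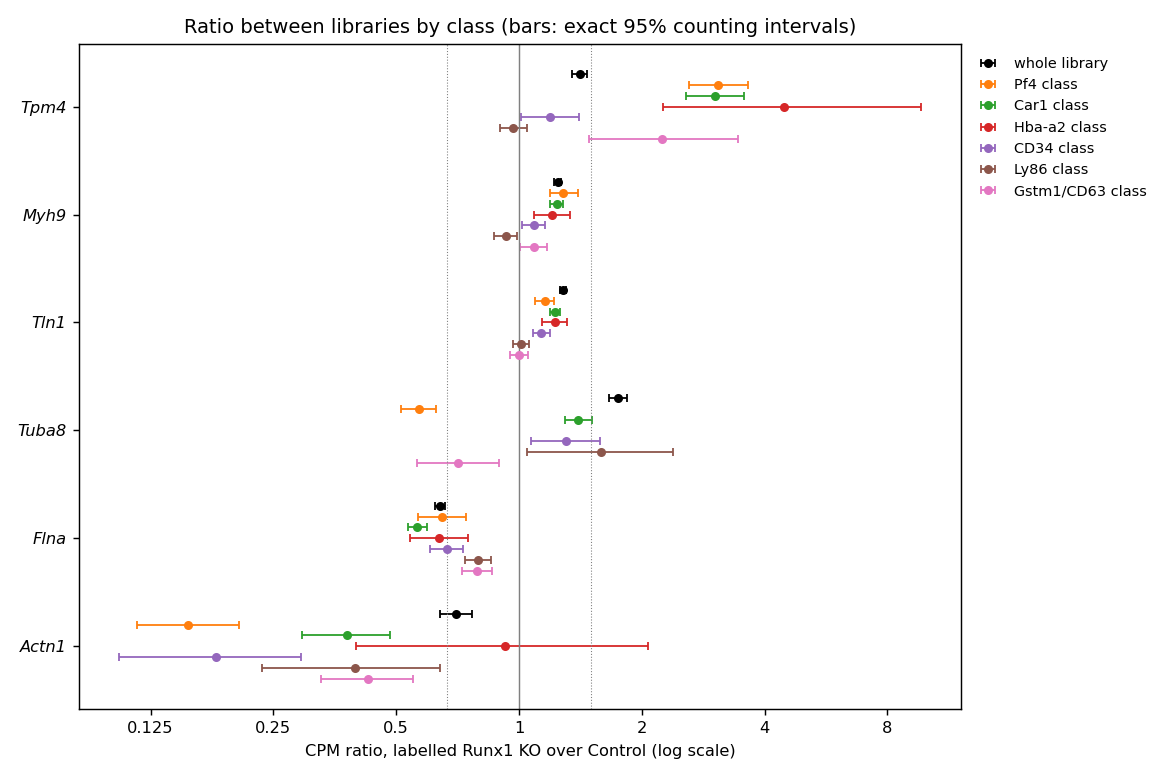
CPM ratio of the KO-labelled library over Control for 6 of the genes in the whole library and in each class, on a log scale with exact 95% counting intervals; dotted lines mark 1.5-fold. Flna lies left of 1 in every class, Tuba8 lies left of 1 in the Pf4 and Gstm1/CD63 classes and right of it in the others shown, and Tuba8 in Hba-a2, with 1 Control UMI, is left out.

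Whole-library ratios mixed these levels with a different make-up of cells. The Pf4 class gave 17.3% of the UMIs of the KO-labelled library and 2.69% of those of Control. Tuba8 had 27.8 CPM in the whole KO-labelled library and 15.9 CPM in Control (1.75, 1.67 to 1.84), the opposite direction to its ratio within the Pf4 class. When the KO-labelled class levels were weighted by Control's mix of 17 classes, Tuba8 had 16.5 CPM against 15.9, a ratio of 1.04. Over the 6 compared classes alone, chosen after the values were seen because the Prss34 class of basophil markers held 1 KO-labelled cell, the ratio was 1.14. The same weighting over 17 classes moved Myh9 to 1.04 from 1.24 in the unweighted libraries, Tln1 to 1.10 from 1.28, and Tpm4 to 1.18 from 1.41. Over the 6 compared classes alone these ratios were 1.11 for Myh9, 1.13 for Tln1 and 1.24 for Tpm4. The 1 KO-labelled cell of Prss34 held 0 UMIs of Myh9 and of Tpm4, where Control cells of that class had 194 and 19.3 CPM. Flna and Myh10 moved little, with weighted ratios of 0.693 and 0.552 beside unweighted ones of 0.641 and 0.594. Actn1 moved further below 1, to 0.387 beside 0.701, where Ltf, the class with most Actn1 per UMI of those named here, held 1.72% of the UMIs of the KO-labelled library and 0.425% of those of Control.

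**Figure D3:**
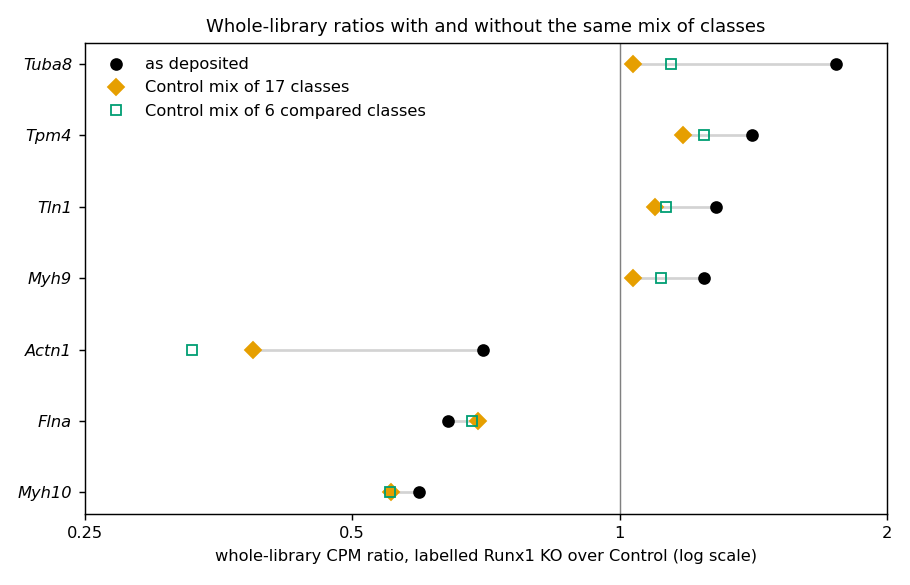
Whole-library CPM ratio of the KO-labelled library over Control for 7 genes, on a log scale, as deposited (circles) and with the KO-labelled class levels weighted by Control's mix of 17 classes (diamonds) or of the 6 compared classes (squares). Tuba8 moves from 1.75 to 1.04 with 17 classes and to 1.14 with 6, whereas Actn1 moves further below 1.

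Within the Pf4 class the cells of the libraries differed in marker level, so each gene was read in low, middle and high bands of the summed marker CPM, cut at the terciles of Control cells. The bands are ranges of a score and not cell types; 11.7% of KO-labelled and 9.01% of Control cells lay within 10% of the lower bound. In the low, middle and high bands (774, 472 and 536 KO-labelled cells, 74 Control cells each) Tpm4 had 47.1, 85.5 and 220 CPM in KO-labelled and 16.1, 28.8 and 52.3 CPM in Control cells. It climbed with the markers in both libraries and was higher in KO-labelled cells in each band. Tuba8 had 72.4, 76.0 and 61.1 CPM in KO-labelled and 81.3, 132 and 143 CPM in Control cells, so that the ratio was 0.891 (0.717 to 1.12), 0.576 (0.487 to 0.682) and 0.427 from low to high. Flna was lower in the low and middle bands, at 24.6 and 32.2 CPM in KO-labelled against 54.5 and 56.9 CPM in Control cells, and close in the high band, at 75.5 and 76.2 CPM (0.992, 0.820 to 1.21). Actn1 was lower in all 3, with ratios of 0.133, 0.0904 and 0.268. In the high band the markers themselves summed to 15871 CPM in KO-labelled and 10238 CPM in Control cells.

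Since Pf4 gave most of the marker UMIs and itself differed, the bands were cut again by the other 11 markers, a choice made after the values were seen. Then only 24 and 65 KO-labelled cells fell in the low and middle bands and 1693 in the high band, against 74 Control cells in each. At these matched low and middle levels Tpm4 was not higher. It had 11.1 CPM in KO-labelled and 16.3 CPM in Control cells in the low band (0.681, 0.130 to 2.28) and 22.6 and 41.9 CPM in the middle band (0.540, 0.307 to 0.908). In the high band it had 111 and 43.9 CPM (2.54, 1.98 to 3.31), where the 11 markers summed to 3571 CPM in KO-labelled and 1885 CPM in Control cells. The direction for Tpm4 thus depended on how marker level was matched, and the part of marker level in the difference of the whole class cannot be told apart. Tuba8 kept its direction, with ratios of 0.659 (0.372 to 1.10), 0.501 (0.370 to 0.667) and 0.552 (0.474 to 0.647). Flna was lower in the high band as well here, at 42.2 CPM in KO-labelled and 71.8 CPM in Control cells (0.588, 0.479 to 0.727), so its closeness at high marker level was not seen without Pf4 among the markers; the ratio was 0.671 (0.309 to 1.31) in the low and 0.296 (0.163 to 0.503) in the middle band. Actn1 had 0 UMIs in the KO-labelled cells of the low and middle bands against 31 and 44 in Control cells. Myh9 and Tln1 had ratios from 0.896 to 1.22 over these bands, whereas with all 12 markers they reached 1.54 and 1.43 in the high band.

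**Figure D4:**
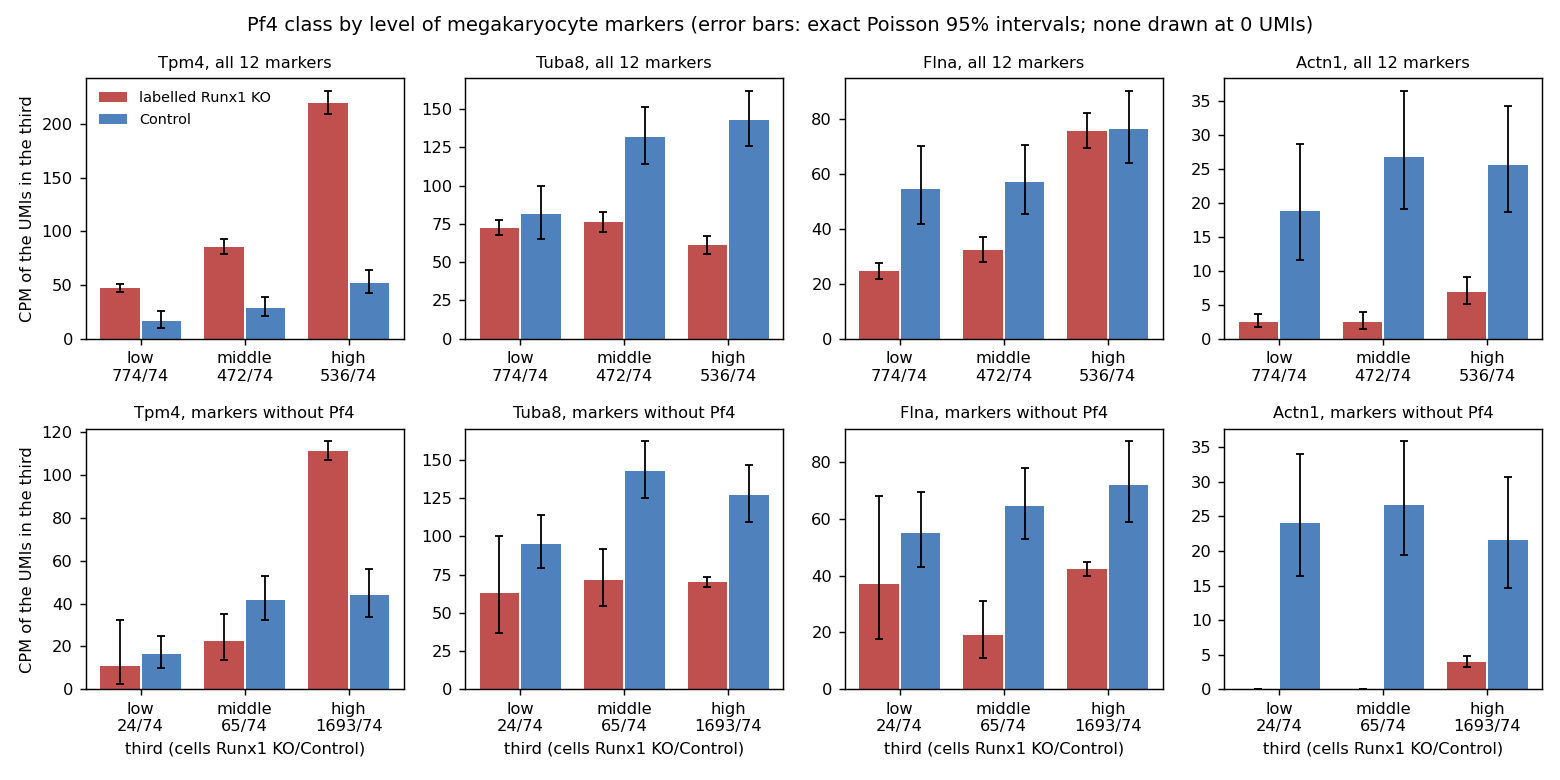
CPM of Tpm4, Tuba8, Flna and Actn1 in bands of the Pf4 class by summed megakaryocyte marker level, with all 12 markers (top) and without Pf4 (bottom), KO-labelled left of Control; cell numbers stand under each band and bars carry exact Poisson 95% intervals. Tpm4 is higher in KO-labelled cells in every band of the upper row but only in the high band of the lower row, while Tuba8 and Actn1 are lower in all.

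The Car1 class was split the same way, because KO-labelled cells of that class carried more megakaryocyte markers, 751 CPM against 285 CPM in Control cells. Cells with under 1 marker UMI per 10000 made up 14.2% of the class in the KO-labelled library (426 cells) and 59.3% in Control (1310 cells); the subset of the remaining cells was added after the values were seen. Among the cells with few markers, Tuba8 had 4.88 and 9.60 CPM (0.509, 0.362 to 0.700), and among the rest 41.8 and 58.5 CPM (0.714, 0.657 to 0.776). Tuba8 was thus lower in both subsets, though higher in the class as a whole. The subsets were not fully matched in marker level. The markers summed to 44.5 CPM in KO-labelled and 23.1 CPM in Control cells with few markers, and to 908 and 850 CPM in the rest. Pf4, lower in KO-labelled cells of the class at 102 and 153 CPM, was among these markers. The class was not split without it. Myh10 turned in size rather than direction: at 11.6 and 27.9 CPM over the class (0.414, 0.374 to 0.457), it had 32.6 and 37.6 CPM in cells with few markers (0.869, 0.762 to 0.988) and 6.91 and 7.17 CPM in the rest (0.963, 0.765 to 1.22). Flna was lower by about as much in both subsets, with ratios of 0.571 (0.511 to 0.636) and 0.552 (0.511 to 0.596). Tpm4 was 1.89 and 2.73 CPM in cells with few markers, an interval that includes no difference (0.384 to 1.17), and 15.6 and 7.80 CPM in the rest (2.00, 1.63 to 2.47). Myh9 and Tln1, higher in the class, had ratios of 0.931 and 1.04 in cells with few markers and 0.983 and 0.972 in the rest.

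Related genes of the same machinery gave a background for the members in the Pf4 class. Of 14 other actomyosin genes 10 were measured, 2 were at least 1.5-fold higher in KO-labelled cells and none was lower, where 7.15% of all measured genes of the class were higher and 3.38% lower. The 2 were kinases of myosin light chains, Mylk3 with 36.5 and 4.57 CPM (7.98, 5.13 to 13.1) and Mylk with 42.2 and 15.8 CPM (2.67, 2.09 to 3.46), both over the 30 CPM minimum in the KO-labelled library only. None of the 7 measured of 14 other tubulin genes passed 1.5-fold after the pseudocount, with a median log2 ratio of -0.17. Tubb5 had 652 and 764 CPM, and Tuba1b had 368 and 541. Tuba1a went the other way, with 32.8 and 19.4 CPM, a ratio of 1.69 before the pseudocount. Of 16 relatives of filamin, talin and alpha-actinin and linkers of integrins, 8 were measured and 2 were higher, the integrin-linked kinase gene Ilk with 124 and 75.3 CPM and Fermt3, the kindlin that activates platelet integrins, with 610 and 402. The alpha-actinin relative Actn4 had 117 and 130 CPM, so the difference in Actn1 was not shared by it.

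Among 16 genes of actin turnover, all measured, 2 were higher: the filament-severing Gsn with 45.1 and 19.0 CPM (2.38, 1.90 to 3.01) and Vasp with 223 and 143 CPM. Of the 6 other tropomyosin and actin genes 4 were measured and none passed; Tpm1 had 158 and 104 CPM, a ratio of 1.52 before the pseudocount, and Tpm3 had 368 and 347. Of 8 other reported Runx1 targets 6 were measured and 2 were higher. These were the lipoxygenase gene Alox12 with 102 and 3.66 CPM (27.8, 17.1 to 48.7) and the protein kinase gene Prkcq with 171 and 66.1 CPM (2.59, 2.30 to 2.93). Pf4, also on this list, was lower at 3469 and 5116 CPM (0.678, 0.668 to 0.688), under 1.5-fold. With it the 8 genes summed to 4091 CPM in KO-labelled and 5499 CPM in Control cells. Of 9 transcription factors found, 7 were measured and 2 were higher, Ets1 with 60.1 and 16.2 CPM and Gata1 with 116 and 61.5 CPM. Gsn, Alox12 and Ets1 too reached 30 CPM in the KO-labelled library only. Nfe2, whose protein drives Tubb1 in mouse megakaryocytes, had 117 and 116 CPM (1.01, 0.922 to 1.12). In the Car1 class the count of higher genes was 1 of 9 measured actomyosin genes, 1 of 5 tubulin genes, 3 of 7 integrin linkers and relatives, 0 of 4 tropomyosin and actin genes, 1 of 15 actin turnover genes, 2 of 5 Runx1 targets and 1 of 6 transcription factors, and none was lower, beside 3.67% higher and 1.95% lower of all measured genes of that class.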

How the data were processed

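The deposited matrix holds counts: UMIs of 31053 genes in 14795 cells of both libraries, made with the 10x Genomics 3′ kit, version 3, per the labels. Per the submitters' processing notes Cell Ranger and mm10 were used, with no version or setting given in the sources used here. The table of cells that the authors deposited adds each cell's count of UMIs and genes, mitochondrial fraction, size factor (a ratio, not used here), library and class, 1 of 18; how classes were assigned is not described there. Its wild type library was taken as Control. The summed UMIs equalled the annotated ones in all 14795 cells, and all deposited cells were kept; doublets were not called.

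UMIs were summed per class and library and scaled to CPM. Log2 ratios are of KO-labelled over Control CPM after a pseudocount of 10. Ratios carry exact conditional Poisson intervals, shares exact (Clopper-Pearson) binomial ones, and a count of 0 a limit of 3 counts; PCR and capture error are not covered. Shares used cells thinned once to 5000 UMIs, leaving out 84 and 17 shallower cells of the Pf4 class (KO-labelled and Control) and 82 and 113 of the Car1 class. Locations are from GENCODE M21 on GRCm38, where 30934 of 31053 identifiers matched. The calculation was tested on simulated counts. Python 3.11.15, NumPy 2.4.6, SciPy 1.17.1 and pandas 2.3.3 were used.

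The members, lists, markers and tests were chosen with earlier results of these data known. Genes named besides the 9 members and Runx1 were, per list, the measured ones at least 1.5-fold different in the Pf4 class (at most 4), and the 3 genes most like each member; any other was chosen after its values were seen. Some genes of the lists are not reported here by name. Alternatives were another pseudocount, no minimum, other cell filters, per-cell means, another CPM base, centring, Control's class mix and splits by marker level.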

Additional observations from a re-analysis of the deposited data

Results flagged for a closer look

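Tuba8 and Myh9 moved in opposite directions in different classes of the same libraries, with counting intervals that excluded no difference on both sides; with 1 library per genotype the difference between classes was not tested. The log2 ratio of Tuba8 was 0.36 in the Car1 class and -0.74 in the Pf4 class, 1.10 apart. Within Car1 cells of either low or higher megakaryocyte marker level Tuba8 was lower in KO-labelled cells. That split kept Pf4 as a marker and left marker sums of 44.5 and 23.1 CPM in the cells with few markers. The part of marker level in the opposite directions was not tested. The log2 ratio of Myh9 was 0.34 in the Pf4 class and -0.10 in the Ly86 class, 0.44 apart. The Ly86 value of Myh9 was 0.03 when each cell counted the same.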

How the results depend on the processing

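Over the 7 members with enough UMIs, 390 of 413 log2 ratios under an alternative kept their sign and 23 did not. The reversals of a counted difference concerned Tpm4 in the Pf4 class, with log2 ratios of -0.32 and -0.67 in the low and middle bands of the markers without Pf4, from 24 and 65 KO-labelled cells. Counts of members at least 1.5-fold different moved as follows. The share of all genes that passed under each alternative was not computed, so these counts describe the settings and cannot be read against a background. With a pseudocount of 1 CPM, 1 was lower in the whole library, 2 in Pf4 and 1 in Hba-a2; without a minimum, 1 was higher and 2 lower in Car1, 2 lower in Pf4 and 1 in CD34. With mitochondrial and ribosomal protein genes out of the CPM base, 1 was higher and 1 lower in the whole library, 2 lower in Car1 and 3 in Pf4. With per-cell means 1 was lower in the whole library. In the Pf4 class, 2 were lower in the middle band and 2 higher in the high band of all markers; without Pf4 as a marker, 0 were higher and 0 lower in the low band, 0 higher and 2 lower in the middle band, and 2 lower in the high band. Fewer cells, a smaller offset or a smaller base are the alternatives' own construction; other causes were not tested. Leaving out cells of high mitochondrial share, the 5% deepest cells, centring or the Control mix of classes moved no count by over 1.5 times. No paired analysis was possible because each genotype has 1 library. Depth limits Myl9 and Tubb1, and Myh10 outside the erythroid classes.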

Other observations

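Each member's pattern over the 12 sums of the 6 compared classes in both libraries was set beside 5975 measured genes by Pearson's correlation of log2(CPM + 10). The sums share libraries, depth and lineage, so the values describe likeness only. Myh9 was most like Arrb2 (r = 0.989), Tmem106b and Fcho2 (both 0.982), and Tln1 most like Cd151 (0.992), Arrb2 (0.984) and Ncoa3 (0.982). Arrb2, which encodes an arrestin that binds activated receptors, had 96.9 CPM in KO-labelled and 68.4 CPM in Control cells of the Pf4 class. Myh9 and Tln1 were also like each other (0.977), and Tln1 like Tuba8 (0.927), whereas Tpm4 and Tuba8 were not (0.350).

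Myh10 followed the metallothionein gene Mt2 (0.998), the unconventional myosin gene Myo1d (0.996) and the sphingosine kinase gene Sphk1 (0.995), all under 4 CPM in the Pf4 class of both libraries. Tpm4 was most like Plekho1 (0.944), with 54.8 and 26.1 CPM in the Pf4 class, and I830077J02Rik (0.938). Lamtor1 (0.932) had 120 CPM in KO-labelled and 116 CPM in Control cells. Tuba8 was most like Zbtb38 (0.973), Rnf181 (0.968) and Erbin (0.967). Flna was most like Rpl39 (0.948), Spin1 (0.932) and Acot7 (0.927), and Actn1 most like Ide (0.942), Cars2 (0.898) and Ppip5k2 (0.864). Myl9 and Tubb1 had under 100 UMIs and were not compared.

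In the basophil class Prss34, where the KO-labelled library had 1 cell and Control 337, Control cells had 52.1 CPM of Tuba8 and 120 CPM of Flna. That Flna level lay above those of the 6 compared classes of Control (33.2 to 80.3 CPM). It lay under the 323 CPM of Ltf and the 229 CPM of Cd74 in Control, so high Flna was not particular to Prss34.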
